A study of Mus musculus with 4 samples.

Results

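The genes described here encode the proteins that build the nuclear pore and carry cargo through it. They are the protein-coding mouse genes whose symbol names a nucleoporin (Nup genes, Ndc1, Aaas and Ranbp2), a transport receptor (importins, transportins, karyopherins and exportins) or the small GTPase Ran and its cofactor Ranbp1. Of the 55573 genes in the deposited count table, 49 met this rule: 24 nucleoporins, 23 transport receptors, and Ran with Ranbp1. The genes were followed in an RNA immunoprecipitation experiment (RIP-seq), which sequences the RNA that an antibody holds on beads. In 2 libraries the antibody was against Runx1, a transcription factor needed for blood stem cells to form from embryonic endothelium, and in the other 2 it was IgG, the background control. All 4 came from wild-type (WT) C57BL/6 mouse embryos at E10.0, from Cd31+ cells sorted out of the caudal part of the embryo, and the labels of the groups differ only in the antibody. The question put to each gene was whether its RNA made up more or less of the library with the Runx1 antibody than with IgG.

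The nuclear pore is a ring of proteins set in the nuclear envelope, repeated with rotational symmetry around a central channel. Scaffold nucleoporins (the Y complex and the inner ring) hold the structure, membrane nucleoporins anchor it, and nucleoporins rich in phenylalanine-glycine repeats fill the channel and bind passing receptors. Transport receptors recognise import or export signals on cargo, and the difference in RanGTP across the envelope makes importins release and exportins load their cargo inside the nucleus. Transcription factors reach their genes, and mRNA, tRNA and microRNA precursors reach the cytoplasm, through this gate.

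The libraries held 1675488 to 3843318 gene counts each. Levels are given as CPM, a gene's counts scaled to a common gene total in each library, so a value is a share of the recovered RNA and not an amount per cell. Fewer cells of a type, less RNA per cell and less of an RNA held on the beads cannot be told apart in such pools. The labels do not state whether replicates are separate embryos or sorts, and any p-value here therefore reflects variation among the libraries as deposited, technical variation included. The Cd31+ label was matched by endothelial RNA: Pecam1, the gene of CD31, stood at 79.4 to 103 CPM over the 4 libraries and the receptor gene Kdr at 663 to 873 CPM. Markers of other cells were present too, the mesenchymal receptor gene Pdgfra at 382 to 473 CPM among them. Of the tested markers, 4 of 7 endothelial, 4 of 5 blood stem and progenitor and 3 of 5 epithelial ones lay below 0 in log2 fold change. Above 0 lay 5 of 7 mesenchymal and 4 of 5 neural ones. Of 7 erythroid markers 6 could be tested and all 6 lay above 0 in log2 fold change, with a summed level of 849 to 850.5 CPM with the Runx1 antibody and 449.6 to 482 with IgG. Of 7 macrophage and platelet markers 3 could be tested and all 3 lay above 0, with a summed level of 31.6 and 197 CPM against 16.7 and 17.7. Csf1r alone gave 144 of the 197 CPM in Runx1 replicate 2. Without that library the median log2 fold change of the 3 tested markers of this list was 0.052, against 5.92 with it. The genes tested were not the same, since C1qa then fell under the filter's minimum total of 15 counts. In Runx1 replicate 1 C1qa had 12 counts and Ppbp 21, against at most 1 in an IgG library. Csf1r stood at 11.9 CPM there against 12.5 and 9.67 with IgG, and Pf4, Gp9, Cd68 and Adgre1 had 0 counts. Of the 7 markers, Cd68 had 0 counts in both Runx1 libraries and C1qa had 0 in both IgG libraries. None of these erythroid, macrophage and platelet markers passed edgeR's quasi-likelihood test at a false discovery rate of 0.05. At an unadjusted edgeR p under 0.05, 4 of 6 erythroid and all 3 macrophage and platelet markers were higher, with 6.88% of all tested genes. DESeq2 called 2 and 1 of them higher and limma-voom 0 and 0, with 1.85% and 0.823% of all tested genes. The part of such cells in the results below was not tested.

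Of the 48 nuclear pore and transport genes with enough counts to test, 2 fell with the Runx1 antibody and 0 rose in edgeR's quasi-likelihood test at a false discovery rate of 0.05. The genes that fell were Tnpo1, an import receptor, and Ranbp2, a nucleoporin. Over all 12401 genes tested, 0.645% were called in either direction, 0.306% higher and 0.339% lower, against 4.17% of these 48. Most calls lay among abundant RNAs, so the nearer background is the set of genes with a mean of at least 100 CPM. There, 3.28% of 2381 genes were called (1.55% higher and 1.72% lower), as were 8.70% (2 genes) of the 23 pore and transport genes at that level. At an unadjusted edgeR p under 0.05, 4 of the 48 were higher and 6 lower, with 6.88% and 7.36% over all tested genes. The one gene that was not tested was Kpna7, an importin alpha known from oocytes and early embryos, with 0 counts in all 4 libraries. At these depths 0 counts allow up to 0.781 to 1.79 CPM (3 counts per library, counting error only).

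Tnpo1 encodes transportin, the receptor that imports hnRNP proteins and other RNA-binding proteins with a PY-type signal. It stood at 591 and 556 CPM with the Runx1 antibody and at 1191 and 1161 CPM with IgG. Both Runx1 libraries lay far below both IgG libraries, and the replicates differed 1.06-fold with the Runx1 antibody and 1.03-fold with IgG. The level fell 2.09-fold (573 ± 24.8 against 1176 ± 21.04 CPM, mean ± SD, n = 2 each; log2 fold change -1.07 ± 0.12 SE, edgeR adjusted p = 0.0122). By unadjusted p it ranked at place 12 of all tested genes.

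Ranbp2 encodes the giant nucleoporin of the cytoplasmic filaments, which binds Ran and acts as a SUMO ligase. It stood at 269 and 256 CPM with the Runx1 antibody and at 483 and 542 CPM with IgG, again with no overlap. The level fell 1.99-fold (262 ± 8.95 against 513 ± 41.6 CPM, n = 2 each; log2 fold change -0.996 ± 0.17, edgeR adjusted p = 0.0456). Its adjusted p lay close to the threshold. Without IgG replicate 2 it was 0.0587 and the gene was not called, while Tnpo1 was called without each of the 4 libraries in turn. Neither gene was called once the trend in transcript length and GC was taken out (Tnpo1 -0.46, edgeR adjusted p = 0.203; Ranbp2 -0.37, edgeR adjusted p = 0.441).

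Nearest to passing on the other side were Xpo5 and Nup93. Xpo5 encodes exportin 5, the receptor that takes microRNA precursors out of the nucleus. It stood at 341 and 286 CPM with the Runx1 antibody and at 105 and 141 CPM with IgG, 2.50 times higher (log2 fold change 1.32 ± 0.24, edgeR adjusted p = 0.0541). Nup93, a scaffold protein that links the parts of the inner ring, stood at 190.4 and 145 CPM against 53.1 and 68.9 CPM, 2.69 times higher (1.43 ± 0.31, edgeR adjusted p = 0.0904). In both genes the libraries of the antibodies did not overlap. Neither passed the main test, though both passed with DESeq2 (adjusted p = 9.44e-05 and 0.00245) and with limma-voom (0.0133 and 0.0398). After the length and GC correction neither passed (edgeR adjusted p = 0.0637 and 0.134). Over 16 alternative settings Xpo5 was called higher in 8 and Nup93 in 5. Both rises are relative to the other genes, and scaling to spike-in RNA moved the median of all tested genes to -1.25. DESeq2 called 2 of the 48 higher and 3 lower, with 1.85% and 2.45% of all tested genes, and limma-voom called 2 and 2, with 0.823% and 0.968%.

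**Figure D1:**
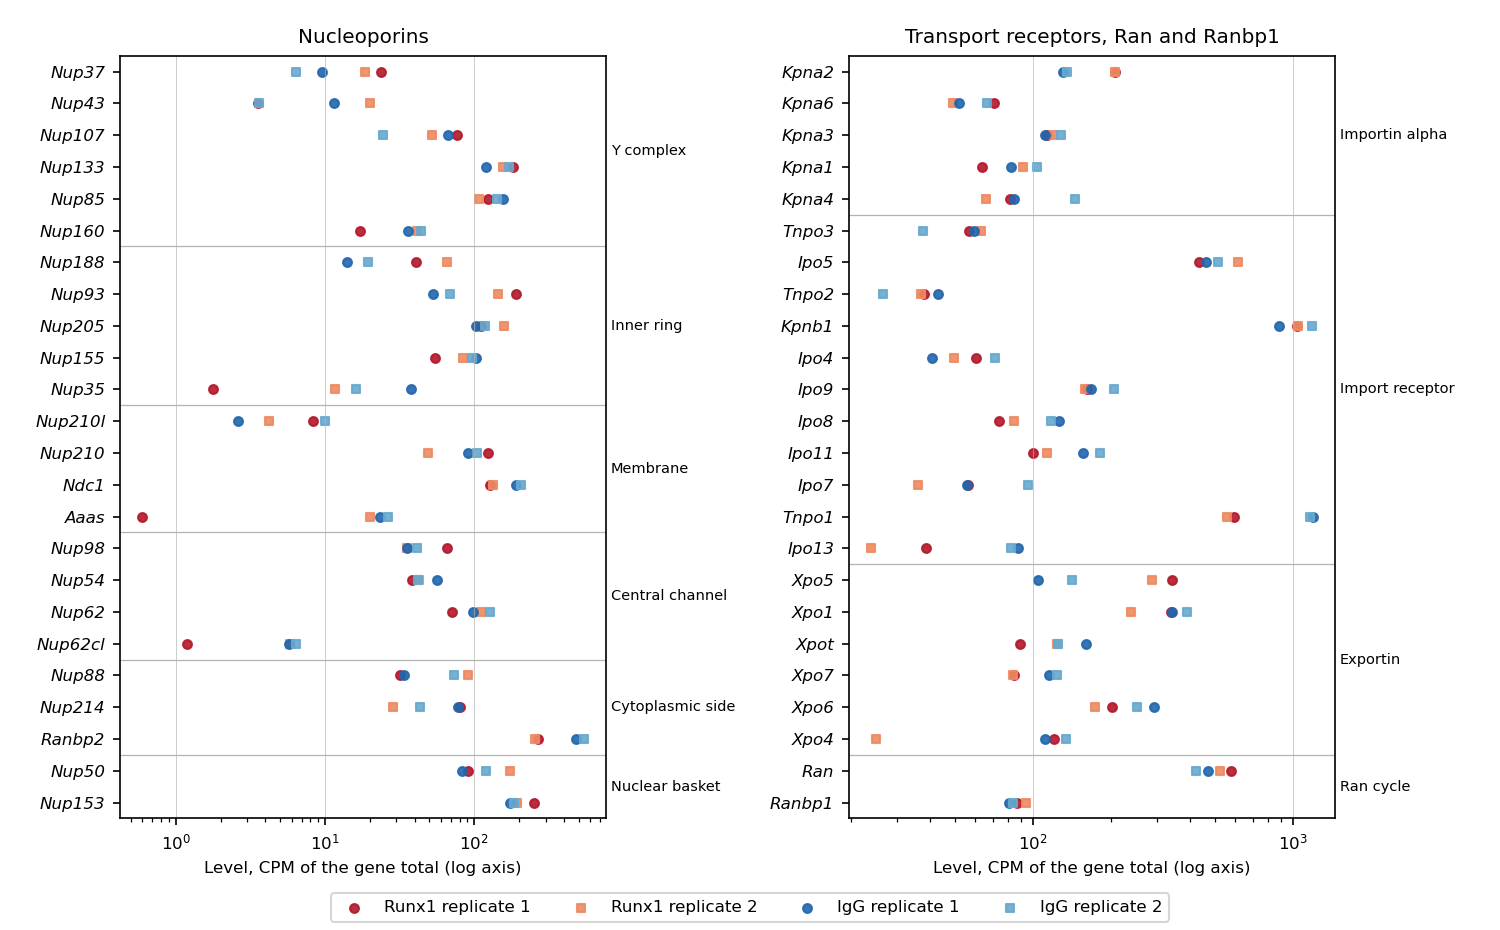
Level of each tested nucleoporin (left) and each tested transport receptor, Ran and Ranbp1 (right) in the 4 libraries, as CPM of the gene total on a log axis, with 1 point per library and genes grouped by role. The red and orange Runx1 points of Tnpo1 and Ranbp2 lie well below the blue IgG points, those of Xpo5 and Nup93 lie above them, and in 24 of the 48 genes the antibodies overlap, as they do in 6767 of all 12401 tested genes.

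These 4 genes lie apart in the genome and differ in the base composition of their RNA. In mm10 (GRCm38) coordinates Tnpo1 is at chr13:98839019-98926384 on the minus strand and Ranbp2 at chr10:58446920-58494356 on the plus strand. Xpo5 is at chr17:46202782-46243598 and Nup93 at chr8:94214564-94317227, both on the plus strand. Transcript GC content, taken from the longest annotated transcript, was 40.4% for Tnpo1 and 40.6% for Ranbp2, against 50.4% for Xpo5 and 48.6% for Nup93. In the coding sequence alone it was 46.2% for Tnpo1 and 40.8% for Ranbp2, against 49.4% for Xpo5 and 50.1% for Nup93. The gap of Tnpo1 was thus smaller there. The 4 genes were picked by their test results, and not every other gene followed the contrast. Ipo13, at a log2 fold change of -1.47, had 57.5% transcript GC, and Nup37, at 1.36, had 43.3%. As a local view, the stretch of 30 coding bases with the fewest G and C was taken from each gene. It is printed 5′ to 3′ on the coding strand in DNA letters (GENCODE M21, first such stretch), with G and C in capitals.
Tnpo1: taCttGatttttGttCttaCaaaattaaaa
Ranbp2: tttaaatttaaCtCaaatttCaaatCaaat
Xpo5: tCaaGttttGtGaaGaGtttaaaGaaaaat
Nup93: aGatCtatatCtataaCGaGaaGattGtGa
The Tnpo1 stretch held 5 G or C bases (coding bases 169 to 198, chr13:98888473-98888502) and that of Ranbp2 held 4 (coding bases 3088 to 3117, chr10:58476547-58476576), each within 1 exon. The Xpo5 stretch held 7 (coding bases 101 to 130) and that of Nup93 held 9 (coding bases 563 to 592), and both span an exon junction. Of 10674 tested protein-coding genes with a complete coding sequence, 4.27% had a stretch as poor in G and C as that of Ranbp2, 12.4% as that of Tnpo1, 40.9% as that of Xpo5 and 69.0% as that of Nup93. A long coding sequence offers more stretches to choose from, and that of Ranbp2, at 9159 bases, is the longest of the 4. Among genes not called, the stretch of Ipo7 held 3 G or C bases and those of Nup155 and Xpo1 held 4 each. Over the 48 tested pore and transport genes, coding GC had a Pearson r of 0.13 with log2 fold change (Spearman 0.23). Over the 10674 genes it was 0.16 (Spearman 0.19).

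The nucleoporins spread to both sides of 0, with 11 above and 13 below, where 51.5% and 48.5% of all tested genes lay. Of the 24, all of which could be tested, 1 fell (Ranbp2), 0 rose and 23 did not pass. Their log2 fold changes ran from -2.0 to 1.65 with a median of -0.11, against 0.027 over all tested genes. The sign of that median is not firm: it was 0.17 with a strict filter of 10 counts in every library, which leaves 19 of them, and 0.050 once a smooth trend in transcript length and GC was taken out. Of the 24, 4 had both Runx1 libraries above both IgG libraries and 6 had them below, where the shares over all tested genes were 24.1% and 21.3%.

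Within the Y complex, the outer scaffold that helps shape the curved pore membrane, 4 of 6 genes lay above 0 and none passed. Nup37 stood at 23.9 and 18.5 CPM against 9.63 and 6.45 (log2 fold change 1.36 ± 0.72, edgeR adjusted p = 0.452) on only 16 to 40 counts per library. Nup85 stood at 123 and 108 CPM against 155 and 141 (-0.39 ± 0.26), the Runx1 libraries being the lower ones. Nup107, at 77.0 and 52.5 against 67.1 and 24.6 CPM (0.46 ± 0.53), overlapped between antibodies. The others were Nup43 (log2 fold change 0.62), Nup133 (0.19) and Nup160 (-0.48).

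The inner ring held the widest range of any role. Nup188, a large scaffold protein, stood at 40.6 and 65.7 CPM with the Runx1 antibody against 14.1 and 19.3 with IgG (log2 fold change 1.65 ± 0.54, edgeR adjusted p = 0.222), so it lay on the same side as its binding partner Nup93. Exons of Nup188 overlap the predicted gene Gm28038 on the same strand, and its counts are uncertain to that extent. Nup35, which binds membrane, had 3 and 22 counts against 144 and 40 (1.79 and 11.7 against 37.5 and 16.1 CPM; -2.0 ± 0.93, edgeR adjusted p = 0.379). Without Runx1 replicate 1 its log2 fold change was -1.26. Exons of Nup35 overlap Dusp19 on the same strand. A near-identical stretch of Nup35 occurs in the predicted gene Gm4353, which held 2 to 4 counts per library. The counts of Nup35 are uncertain to that extent. Nup205 (0.25) and Nup155 (-0.55) completed the ring.

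All 4 membrane genes lay below 0, as did 48.5% of all tested genes, and none passed. Ndc1, a transmembrane nucleoporin needed to insert pores, had 127 and 133 CPM with the Runx1 antibody against 191 and 205 with IgG, with no overlap (log2 fold change -0.63 ± 0.23, edgeR adjusted p = 0.273). Aaas, which Ndc1 anchors and which is mutated in triple A syndrome, had 1 and 38 counts against 90 and 66 (-1.27 ± 1.09). Runx1 replicate 1 was the low library, and without it the log2 fold change was -0.36. Nup210 stood at 124 and 48.7 CPM against 91.3 and 104 (-0.21 ± 0.44), its replicates differing more than the antibodies did. Its relative Nup210l, at 2.60 to 10.1 CPM, stood at -0.030 ± 1.15.

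Among the channel nucleoporins, which carry the repeats that transport receptors bind, no gene passed and none separated the antibodies. Nup62 stood at 71.0 and 110.2 CPM against 98.1 and 127 (log2 fold change -0.33 ± 0.34) and Nup54 at 38.2 and 42.4 against 56.2 and 42.3 (-0.32 ± 0.44). Nup98, whose precursor also yields the scaffold protein Nup96, stood at 65.7 and 35.5 against 35.4 and 41.5 CPM (0.36 ± 0.48). The Nup62-like gene Nup62cl had 2 to 22 counts per library (-0.80 ± 1.24).

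On the cytoplasmic side, Ranbp2 was the gene that fell, while its partners in the filaments did not pass. Nup214 stood at 80.6 and 28.6 CPM against 77.5 and 43.1 (log2 fold change -0.18 ± 0.55) and Nup88 at 31.6 and 91.1 against 34.1 and 73.7 (0.17 ± 0.59). In both, the replicates of each antibody lay further apart than the means of the antibodies. The 2 nuclear basket genes lay above 0 without passing. Nup153 stood at 252 and 192 CPM against 174 and 184 (0.28 ± 0.23), and Nup50, which helps importins release their cargo, at 90.7 and 173 against 83 and 120 CPM (0.36 ± 0.37).

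**Figure D2:**
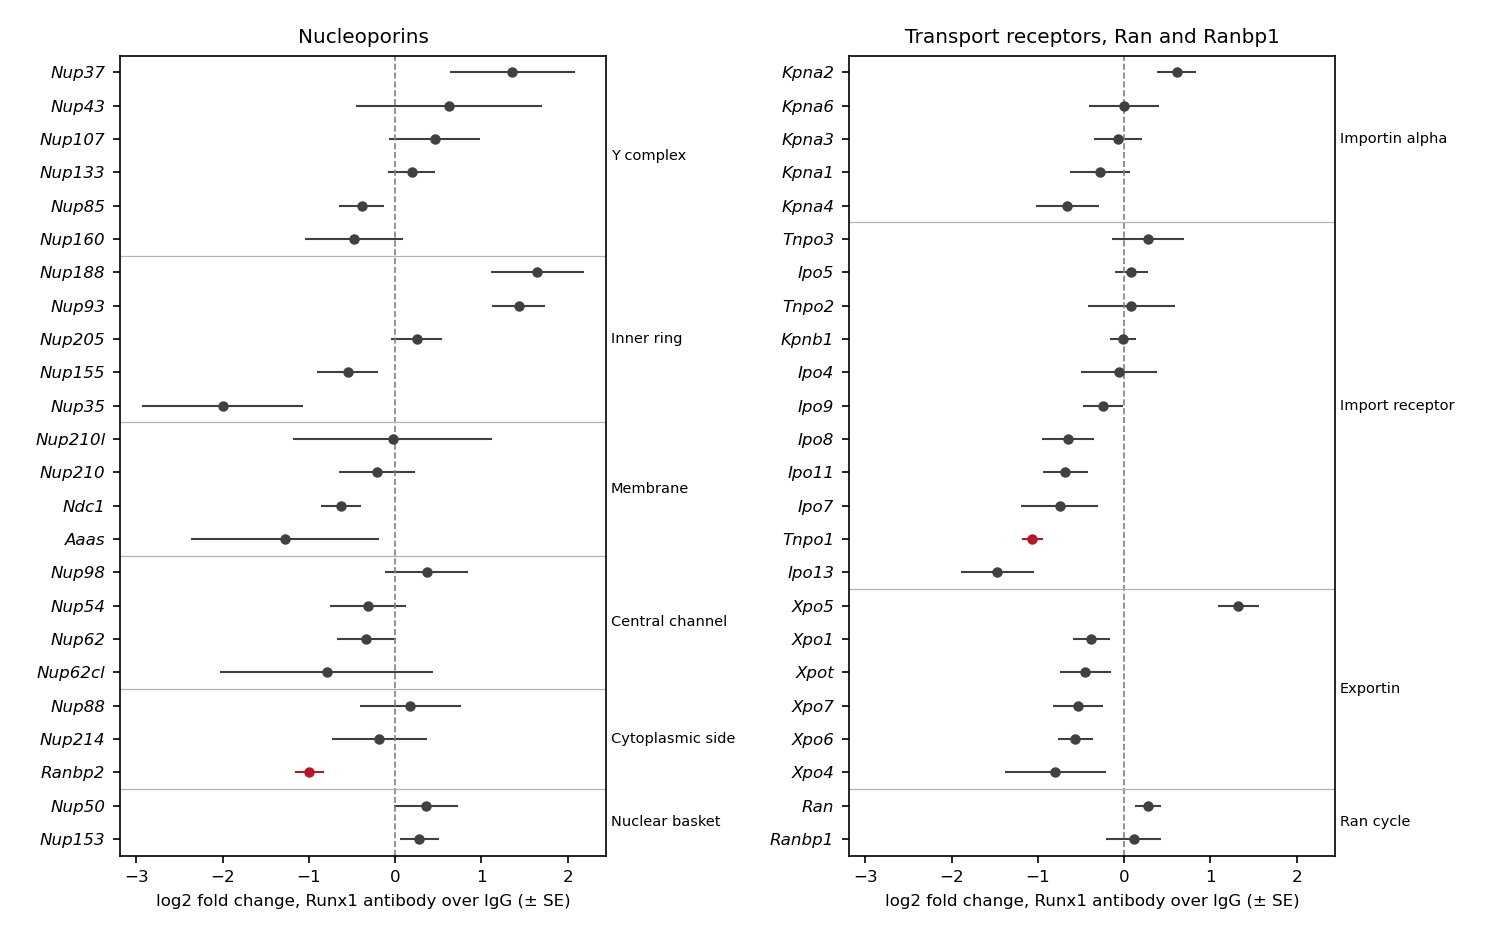
Log2 fold change (Runx1 antibody over IgG, ± SE) of the 48 tested genes, ordered by role, with the 2 genes that passed at a false discovery rate of 0.05 (Tnpo1 and Ranbp2) in red. Of the transport receptors 17 of 22 lie below 0, whereas the nucleoporins spread from -2.0 to 1.65.

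The transport receptors lay mostly on the low side. Of the 22 that could be tested, 1 fell (Tnpo1), 0 rose and 21 did not pass, and 17 lay below 0, as did 48.5% of all tested genes. Their median log2 fold change was -0.33, against 0.027 over all tested genes. Both Runx1 libraries lay below both IgG libraries in 10 of the 22 and above them in 2, where 21.3% and 24.1% of all tested genes did so. After the length and GC correction the median was -0.020, with 12 of 22 below 0.

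Import receptors of the importin beta family gave 3 of the 6 low genes at an unadjusted p under 0.05. Besides Tnpo1 these were Ipo13 and Ipo11. Ipo13, a receptor that imports some cargoes and exports others, stood at 38.8 and 23.8 CPM with the Runx1 antibody against 87.7 and 82.2 with IgG, 2.77 times lower (log2 fold change -1.47 ± 0.42, edgeR adjusted p = 0.178). Ipo11 stood at 99.7 and 113 against 155 and 180.1 CPM (-0.68 ± 0.26, edgeR adjusted p = 0.286). Kpnb1, importin beta itself, stood at 1037 and 1048 CPM against 885 and 1181, a log2 fold change of -0.015 ± 0.15. Of the other transportins, Tnpo2 stood at 0.083 and Tnpo3 at 0.27, and neither passed. The remaining import receptors were Ipo7 (-0.75), Ipo8 (-0.65), Ipo9 (-0.25), Ipo4 (-0.058) and Ipo5 (0.083).

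The importin alphas, the adaptors that recognise the classical import signal and dock on importin beta, did not pass. Kpna2 had the steadiest difference, at 206 and 207 CPM with the Runx1 antibody against 131 and 135 with IgG (log2 fold change 0.61 ± 0.23, edgeR adjusted p = 0.281). Near-identical stretches of Kpna2 occur in 5 predicted genes, which held at most 4 counts each in any library. Kpna4 stood at 81.8 and 65.7 against 84.3 and 145 CPM (-0.66 ± 0.36) and Kpna1 at 63.9 and 91.1 against 82.5 and 103 (-0.28 ± 0.35). Kpna3 (-0.073) and Kpna6 (-0.0050) were close to 0.

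Among the exportins, Xpo5 stood alone above 0 and the other 5 lay below. Xpo6, the exportin of actin and profilin, stood at 201 and 173 CPM against 291 and 251 (log2 fold change -0.57 ± 0.21, edgeR adjusted p = 0.273). Xpo7 stood at 84.8 and 83.7 against 116 and 124 CPM (-0.53 ± 0.29). Xpo1, also called CRM1, the main exporter of proteins with a leucine-rich signal, stood at 339 and 237 against 343 and 392 CPM (-0.38 ± 0.21, edgeR adjusted p = 0.473). In these 3 genes the Runx1 libraries were the lower ones without overlap, though Xpo1 only just. Xpot, the exporter of tRNA, stood at -0.45. Xpo4 stood at -0.80, with 120.0 and 24.9 CPM in the Runx1 libraries, so that its replicates differed 4.82-fold.

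Ran, the small GTPase whose gradient gives transport its direction, and its cofactor Ranbp1 did not pass. Ran stood at 575 and 524 CPM with the Runx1 antibody against 469 and 421 with IgG (log2 fold change 0.27 ± 0.15, edgeR adjusted p = 0.474). Ranbp1 stood at 87.1 and 94.3 against 81.2 and 83.8 CPM (0.11 ± 0.31). In both genes the Runx1 libraries were the higher ones, by 1.21-fold and 1.08-fold. Exons of Ranbp1 overlap Gm49776 on the same strand and Trmt2a on the other.

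Levels between genes were compared as CPM per kilobase of the transcript with the longest coding sequence. On that scale Ran was the most abundant, at 227 with the Runx1 antibody and 184 with IgG, followed by Kpnb1 (177 and 175) and Ipo5 (116 and 108). Tnpo1 came next over all libraries, at 67.8 and 139, and Kpna2 after it, at 101 and 64.7. Over all libraries the most abundant nucleoporin was Nup85 (51.8 and 66.4), though Nup93 (57.2 and 20.8) was above it with the Runx1 antibody. Without division by length, 9 of 24 nucleoporins and 13 of 22 receptors had a mean of at least 100 CPM, which bears on how precisely each was measured.

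GC content moved with the fold changes in both parts of the set, and transcript length mainly in the receptors. Over the 48 genes, log2 fold change had a Pearson r of -0.21 with log2 transcript length and of 0.23 with GC content (Spearman -0.25 and 0.37). Over 12396 tested genes the same values were -0.18 and 0.21 (Spearman -0.26 and 0.24). With length, r was -0.045 over the 24 nucleoporins and -0.36 over the 22 tested receptors (Spearman -0.0013 and -0.39). With GC content it was 0.21 and 0.21 (Spearman 0.26 and 0.45). These are descriptions across genes, which share 4 libraries and are not independent replicates. The 30 genes below 0 had a median transcript of 5710 bases and 45.1% GC, and the 18 above 0 had 4384.5 bases and 47.7%.

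After the correction for both, chosen with this trend already known, none of the 48 genes was called and 7 changed sign. Tnpo1 went from -1.07 to -0.46 ± 0.12 (edgeR adjusted p = 0.203) and Ranbp2 from -0.996 to -0.37 ± 0.16 (edgeR adjusted p = 0.441). In contrast Xpo5 stood at 1.39 ± 0.24 (edgeR adjusted p = 0.0637), Nup93 at 1.33 ± 0.31, Nup188 at 1.66 ± 0.53 and Ipo13 at -1.66 ± 0.44, all within an SE of their uncorrected values. Over all tested genes 0.266% were called higher and 0.0323% lower in that fit.

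**Figure D3:**
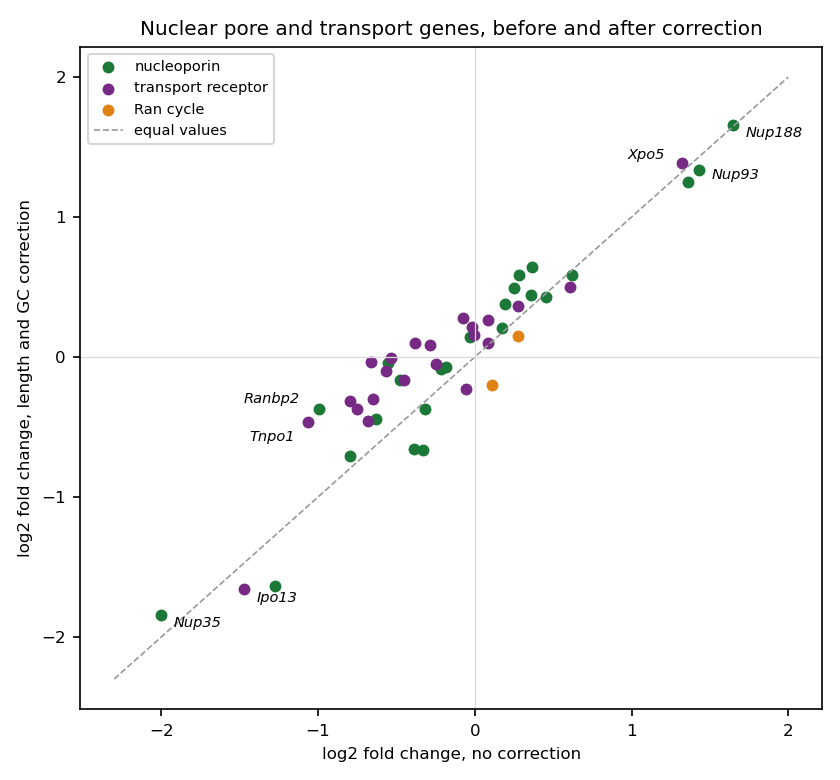
Log2 fold change of the 48 tested genes without (horizontal) and with (vertical) the correction for transcript length and GC content, 1 point per gene, with the dashed line where both are equal. Tnpo1 and Ranbp2 move up from about -1 towards 0, while Xpo5, Nup93, Nup188, Ipo13 and Nup35 stay near the line.

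Replicates lay further apart for the nucleoporins than for the receptors. For the receptors the median fold between replicates was 1.18 with the Runx1 antibody and 1.21 with IgG, and 1 and 0 of 22 differed over 2-fold. For the nucleoporins it was 1.58 and 1.29, with 8 and 5 of 24 over 2-fold. Over all tested genes it was 1.49 and 1.40. Genes such as Aaas, Nup35 and Nup43 rest on fewer than 10 counts in at least 1 library. With Runx1 replicate 2 left out, the lone Runx1 library is assumed to vary like the IgG libraries. It held 1 count of Aaas and 3 of Nup35, and their log2 fold changes were -5.33 and -3.93. Without Runx1 replicate 1 they were -0.36 and -1.26.

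**Figure D4:**
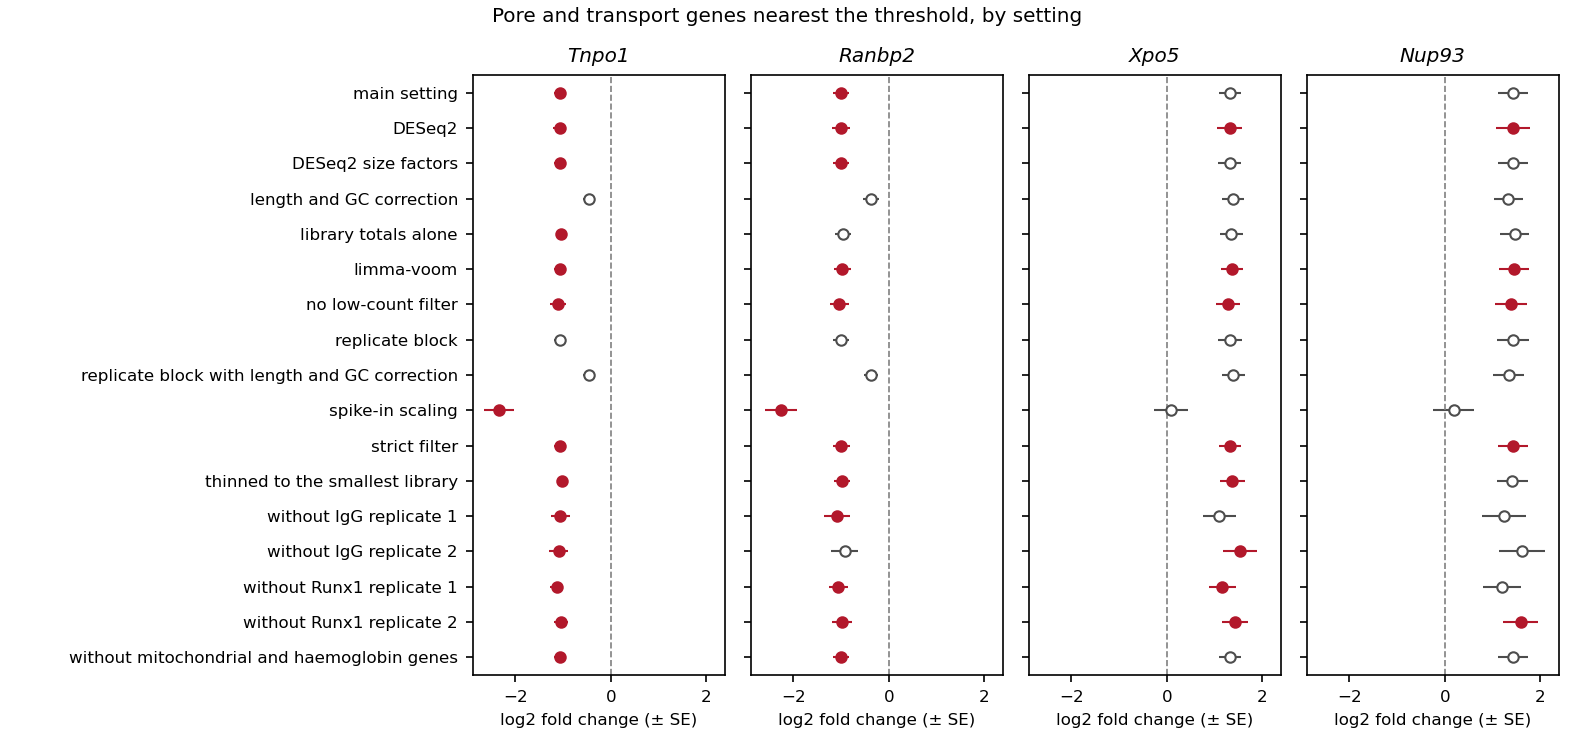
Log2 fold change (± SE) of Tnpo1, Ranbp2, Xpo5 and Nup93 in the main setting and 16 alternatives, with filled red points where the adjusted p was under 0.05 and open points where it was not. Tnpo1 was called lower in 13 alternatives and Ranbp2 in 11, and Xpo5 was called higher in 8 and Nup93 in 5.

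Over those 16 alternatives Tnpo1 was called lower in 13 (adjusted p from 3.52e-12 to 0.329) and Ranbp2 in 11 (2.96e-05 to 0.5003). Xpo5 was called higher in 8 (7.50e-05 to 0.875) and Nup93 in 5 (0.00245 to 0.752). Scaling to spike-in RNA moved the median of all tested genes from 0.027 to -1.25, and 31.6% of them were called lower, 28 of the 48 pore and transport genes among them. Relative to that median gene, the nucleoporin median was -0.051 and the receptor median -0.34.

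Other genes of the pore and of transport, from lists chosen with earlier results of these data known, gave no call in edgeR's quasi-likelihood test. DESeq2 called 2 of 7 other pore proteins higher and 1 of 11 lamina and envelope genes lower, with 1.85% and 2.45% of all tested genes. For limma-voom the calls were 1 and 1, with 0.823% and 0.968% of all tested genes. Of 7 other pore proteins 0 passed and the median log2 fold change was 0.22. Tpr, the long coiled protein that forms the nuclear basket, came nearest at 956 and 1037 CPM against 605 and 669 (0.62 ± 0.13, edgeR adjusted p = 0.0843). Sec13, shared by the Y complex and vesicle coats, stood at 79.4 and 53.0 against 16.7 and 24.6 CPM (1.65 ± 0.49, edgeR adjusted p = 0.187). Of 8 tested other transport factors 0 passed (median 0.19), and the 2 with the smallest p were Nutf2, the importer of Ran (1.15 ± 0.63), and Ranbp3 (0.43 ± 0.26). Of 22 tested mRNA export factors 0 passed (median -0.19), with Mcm3ap (1.08 ± 0.43) and Chtop (-0.60 ± 0.26) nearest. Of 11 tested genes of the nuclear lamina and envelope 0 passed (median -0.14). Syne2, which links the envelope to the cytoskeleton, came nearest at 960 and 936 CPM against 1377 and 1447 (-0.60 ± 0.11, edgeR adjusted p = 0.0542), and Tmpo followed (-0.60 ± 0.28). At an unadjusted p under 0.05 these 4 lists held 3 higher and 3 lower genes among 48 tested, against 6.88% and 7.36% of all tested genes. The annotation gives the channel nucleoporin Nup58 and the filament nucleoporin Nup42 their older symbols Nupl1 and Nupl2, so they fall outside the rule. Nupl1 had 5 counts in Runx1 replicate 1 and 0 in the other libraries, and Nupl2 stood at 1.06 ± 0.94.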

How the data were processed

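RNA held by a Runx1 antibody or by IgG was sequenced from 2 libraries each. The authors deposited 1 table of whole-number counts per gene. The tools named, per the submitters' processing notes, include Salmon 1.1.0, STAR 2.7.3a and Trimmomatic 0.36, with the mm10 build; what each did, the annotation and the strand setting are not stated there, so the counts may be rounded estimates. Of 55573 gene identifiers 55480 matched GENCODE M21, from which positions, transcripts and coding sequences were taken, and 92 spike-in rows stayed out of gene totals. Per library there were 1675488, 1887301, 3843318 and 2482045 gene counts, so 3 counts equal 0.781 to 1.79 CPM. The antibodies were compared in R 4.3.3 with edgeR 4.0.16 (TMM scaling, filterByExpr with a minimum count of 10, quasi-likelihood test, Benjamini-Hochberg adjustment over 12401 genes, threshold 0.05). The biological coefficient of variation was 46.1%. The scripts were tested on simulated counts. Alternatives used DESeq2 1.42.0, limma 3.58.1 (voom), other scalings and filters, natural splines of length and GC with 5 degrees of freedom, thinning, a replicate block and leaving out each library. The genes and lists were chosen with earlier results of these data known. Values in every library are given for genes called, for the 3 smallest p-values in each role and for 10 genes named by the plan; of other lists the 2 smallest p-values are named. A copy of a gene shared 200 bases or more with it, 95% or more of them identical.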

Additional observations from a re-analysis of the deposited data

Results flagged for a closer look

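Spike-in RNA, which served the pore and transport genes only as an alternative scaling, made up more of the Runx1 libraries than of the IgG libraries. Its share of all counts was 0.0367% ± 0.00156 (SD, n = 2) with the Runx1 antibody and 0.0152% ± 0.00327 (SD, n = 2) with IgG. The difference drew attention because the share lay above the level in the control libraries. It was not tested, and an exact permutation test of 2 against 2 could not pass.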

How the results depend on the processing

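The main setting called 38 genes higher and 42 lower, of which 0 and 2 were pore and transport genes, 1 a nucleoporin and 1 a receptor. DESeq2 called 230 and 304 genes, with 2 pore and transport genes higher (1 nucleoporin, 1 receptor) and 3 lower (1 nucleoporin, 2 receptors). Without a filter on low counts 224 and 325 genes were called, again with 2 higher (1 nucleoporin, 1 receptor) and 3 lower (1 nucleoporin, 2 receptors). The strict filter gave 125 and 159 genes, limma-voom 102 and 120, each with 2 higher (1 nucleoporin, 1 receptor), and the nucleoporin median was 0.17 with the strict filter. A false discovery rate of 0.1 gave 106 and 124 genes, with 2 higher. Thinning to the smallest library left 1 higher, a receptor. With library totals alone 1 was lower and 0 nucleoporins were. Scaling to spike-ins called 19 and 3914 genes, 28 pore and transport genes lower (11 nucleoporins, 16 receptors), with medians of -1.31 and -1.59. The length and GC correction called 4 genes lower, 0 of them nucleoporins, receptors or other members, with medians of 0.050 and -0.020.

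With a replicate block 2 genes were called higher and 0 lower, so 0 nucleoporins and 0 receptors, and Tnpo1 (edgeR adjusted p = 0.0608) and Ranbp2 (edgeR adjusted p = 0.140) were not called. With the block and the correction 11 and 0 were called, with medians of 0.0047 for nucleoporins and -0.00031 for receptors. The deviations of same-numbered libraries were all but uncorrelated (Pearson r of 0.0044 over 12401 genes), and the labels do not say what a number marks.

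Leaving out 1 library at a time gave 95 to 248 genes higher and 81 to 352 lower. Pore and transport genes gave 0 to 2 higher and 1 to 4 lower, nucleoporins 0 to 1 and 0 to 3, receptors 0 to 1 and 1 to 3. The medians ran from -0.27 to -0.097 for nucleoporins and from -0.44 to -0.23 for receptors.

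Of 450 values of 30 named genes 403 kept their direction and side of the threshold, 18 passed where they had not, 8 no longer passed and 21 changed sign. Spike-in scaling enters these counts only for Tnpo1 and Ranbp2; under it 8 of the 12 other named genes above 0 lay below 0, and 16 of the 28 that had not passed did. Kpnb1 changed sign with library totals (0.016), limma-voom (0.059), thinning (0.0097), the correction (0.22) and the correction with the block (0.23), and ran from -0.22 to 0.20 over the libraries left out. With the correction, and then with the block added, Kpna1 stood at 0.086 and 0.054, Ranbp1 at -0.20 and -0.20, and Xpo1 at 0.098 and 0.093, and Kpna4 at 0.0056 with both. Over the libraries left out, Nup98 ran from -0.17 to 0.72, Nup210 from -1.05 to 0.29, Nup214 from -1.13 to 0.36, Nup50 from -0.21 to 0.72, Nup88 from -0.82 to 0.81 and Nup107 from -0.097 to 1.35. The cause was not tested.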
